A study of Rattus norvegicus with 54 samples.

Results

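The 150 genes described here were those whose mRNA fell fastest between 2 and 6 h in untransfected cultures of rat cortical neurons. They were chosen from measured values: CPM, a gene's counts scaled to the total of its library, was taken as log2(CPM + 0.5) and averaged by time point over both media in the 18 untransfected libraries. Among autosomal genes that spanned under 500 kb and averaged a CPM of 5 or more at 2 h, the 150 with the largest 2 h minus 6 h value were taken, provided that their 24 h mean lay no more than 0.5 above their 6 h mean. The count table listed 30560 genes, of which 10537 met the chromosome, span and level limits and 9664 of these also met the 24 h limit. The 24 h limit left out 1 gene with as large a fall. All 150 genes had enough counts to enter the tests, which covered 17172 genes.

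The cultures came from rat embryos at day 18 (E18), and their cells are labelled as neurons from cortex. They were left untransfected, or were transfected with an adeno-associated virus (AAV) carrying GFP under the SYN promoter (AAV-SYN-GFP, called GFP here) or with AAV-SYN-rMBD3-GFP, made to overexpress Mbd3 (called rMBD3 here). Each kind of culture was kept in standard medium with magnesium or in medium without magnesium, a condition labelled Epileptic, and RNA was taken at 2, 6 and 24 h. Each of the 18 combinations had 3 libraries, 54 in all, and the culture number (1, 2 or 3) is shared by all combinations. The share of cells that carried virus is not given in the sources used here, and levels before 2 h were not analysed here. The SYN promoter is active in neurons, so other cells in the cultures need not carry the transgene.

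The level of an mRNA falls when it is degraded faster than it is made, so genes with short-lived transcripts can follow a change in transcription within hours. Neurons hold a well-known set of such genes that respond to synaptic activity. Extracellular magnesium blocks the pore of NMDA-type glutamate receptors at rest, and its removal is a common way to evoke synchronous, seizure-like firing in cultured neurons. Mbd3 is a subunit of NuRD, a chromatin complex that removes histone acetylation and moves nucleosomes. The count table names genes by Ensembl identifier only, and none of the 30560 identifiers matched the symbol table at hand (47357 genes, assembly GRCr8). The roles of the 150 genes, the targeted Mbd3 gene and the markers of neurons and other cells are therefore not analysed here, and genes are given by identifier and by position on mRatBN7.2, the build in the file header.

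Total counts per library ran from 14448927 to 39691105. A count of 3, taken as the smallest that could be told from 0, stood for 0.0756 to 0.208 CPM across libraries, counting error only. Together the 150 genes made up 0.495% to 0.867% of a library's counts at 2 h, 0.191% to 0.373% at 6 h and 0.0421% to 0.268% at 24 h, each over 18 libraries. The 2 h libraries thus lay above all 6 h libraries, and the 24 h libraries reached into the range seen at 6 h. For the untransfected libraries, whose values chose the genes, a higher share at 2 h followed from the choice. In GFP and rMBD3 libraries the lowest share at 2 h was 0.495% and the highest at 6 h 0.373%. None of the 150 was below 3 counts in any library at 2 or 6 h, and 0 to 12 of them were at 24 h. Mitochondrially encoded genes took 1.38% to 3.42% of counts at 2 h (median 1.79%), 1.80% to 4.90% at 6 h (median 2.45%) and 1.75% to 4.90% at 24 h (median 2.34%), and the part of this in the fall was not tested. In bulk RNA, fewer cells of a type and less RNA per cell cannot be told apart.

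**Figure D1:**
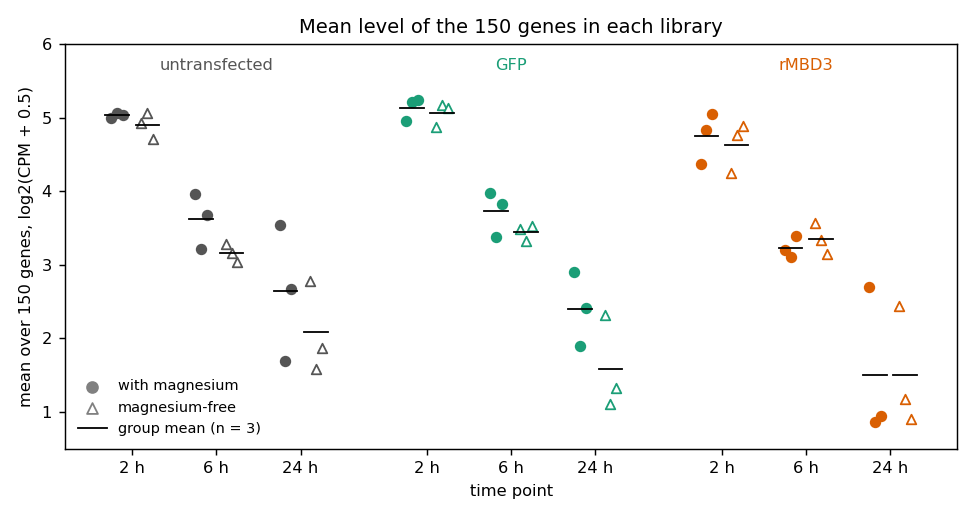
Each point is a library, and the y axis is the mean of log2(CPM + 0.5) over the 150 genes; the x axis gives time point and construct, filled circles are medium with magnesium, open triangles magnesium-free medium, and bars the mean of 3 libraries. All 18 libraries at 2 h lie above all 18 at 6 h, and the 24 h libraries spread from 0.871 to 3.54. The untransfected libraries chose the genes, so their fall from 2 to 6 h followed from the choice. Among GFP and rMBD3 libraries the lowest at 2 h was 4.25 and the highest at 6 h 3.98.

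In the untransfected cultures, whose values chose the genes, the 2 h minus 6 h value ran from 1.39 to 2.35 with a median of 1.53 on the log2(CPM + 0.5) scale, so that the median gene kept 34.7% of its 2 h level at 6 h. The last 3 genes taken had falls of 1.40, 1.40 and 1.39, and the next 3, not taken, of 1.39 each, so the limit cuts through a continuous range. From 6 to 24 h the median gene fell by a further 1.02, 146 of 150 had a lower mean at 24 h than at 6 h, and at 24 h the median gene kept 16.7% of its 2 h level. These values describe the choice and were not tested.

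The fall was also present in libraries that had no part in the choice. In GFP cultures the 6 h minus 2 h change of the 150 genes had a median of -1.48 on the same scale (range -2.26 to -0.78), and in rMBD3 cultures a median of -1.40 (range -2.13 to -0.18). All 150 had a lower mean at 6 h than at 2 h in both, against 51.5% of all 17172 genes in GFP and 49.3% in rMBD3 cultures. These libraries carry the same 3 culture numbers as the untransfected ones, so they are not counted as further independent cultures.

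Tested with edgeR's quasi-likelihood test and Benjamini-Hochberg adjustment over all genes, 130 of the 150 fell and 0 rose in GFP cultures between 2 and 6 h, with a median log2 fold change of -1.56, where 13.6% of all genes were called lower and 9.76% higher. In rMBD3 cultures 123 of the 150 fell and 0 rose, with a median of -1.51, where 14% of all genes were called lower and 9.48% higher. With culture number as a block the counts were 150 and 141 (18.4% of all genes in both). Among the 10537 genes that met the same chromosome, span and level limits the shares called lower were 19.6% and 20.5%. The 6 libraries at 2 h all lay above the 6 at 6 h for 134 of the 150 genes in GFP cultures (11.1% of all genes) and for 108 of the 150 in rMBD3 cultures (11.8% of all genes). Every pair of libraries with the same culture number and medium showed the lower level at 6 h for all 150 genes in GFP cultures (24.5% of all genes) and for 120 in rMBD3 cultures (21.2% of all genes). The number called depended on which cultures were fitted, while the size of the fall did so less. Without culture 3, 34 of the 150 were called lower in GFP (3.42% of all genes) and 22 in rMBD3 cultures (3.6% of all genes), with medians of -1.54 and -1.39. Without culture 2, the counts were 43 (3.45% of all genes) and 54 (5.52% of all genes), with medians of -1.41 and -1.38.

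**Figure D2:**
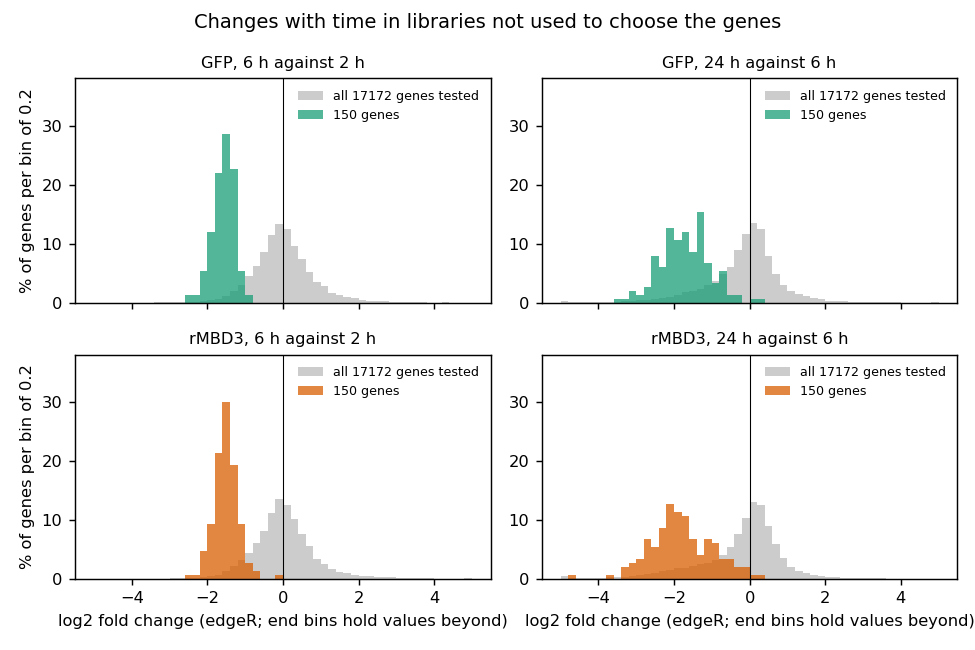
Histograms of edgeR log2 fold changes (x axis) as the percentage of genes per bin (y axis) for all 17172 genes tested (grey) and the 150 genes (coloured), in GFP and rMBD3 cultures. The medians of the 150 are -1.56 and -1.51 for 6 h against 2 h and -1.73 and -1.86 for 24 h against 6 h, while the medians of all genes lie within 0.04 of 0.

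The size of the fall did not differ detectably between the constructs. The 6 h minus 2 h change in rMBD3 cultures minus that in GFP cultures had a median log2 value of 0.04 over the 150 genes. A positive value stands for a smaller fall in rMBD3 cultures. By edgeR 0 of the 150 and 0.0% of all genes were called, with 1 of the 150 and 311 of the 17172 genes at an unadjusted p under 0.05. DESeq2 also called 0 of the 150. The gene with the smallest fall in both kinds of virus culture was ENSRNOG00000008203, at chr15:11574231-11900243 on the minus strand. In rMBD3 cultures its lowest, median and highest CPM were 18.6, 25.1 and 28.9 at 2 h and 17.4, 19.1 and 30.1 at 6 h, and in GFP cultures 22.2, 25.6 and 28.1 at 2 h and 11.4, 15.3 and 16.1 at 6 h. The levels at 2 and 6 h overlapped in rMBD3 and did not in GFP cultures. Its log2 fold change was -0.18 ± 0.32 (SE) in rMBD3 cultures (edgeR adjusted p = 0.742) and -0.81 ± 0.32 in those with GFP (edgeR adjusted p = 0.0639, or 0.0211 with culture number as a block). The difference between these 2 changes was 0.63 ± 0.46 with an edgeR adjusted p of 1.00.

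The largest fall in untransfected cultures was that of ENSRNOG00000003680, a gene of 12 exon blocks at chr10:26936551-27151251 on the plus strand. Its lowest, median and highest CPM in the 6 untransfected libraries were 13.99, 30.1 and 34.9 at 2 h, 2.06, 4.83 and 9.43 at 6 h and 0.978, 2.25 and 18.8 at 24 h. In GFP cultures they were 15.4, 36.3 and 42.9 at 2 h, 4.37, 6.52 and 6.67 at 6 h and 0.154, 1.05 and 5.62 at 24 h. In rMBD3 cultures they were 6.37, 25.1 and 33.2 at 2 h, 3.03, 4.29 and 6.99 at 6 h and 0.144, 0.229 and 4.19 at 24 h. The 2 h and 6 h libraries were apart in GFP cultures and overlapped in rMBD3 cultures, where both low 2 h values came from culture 1. They were also apart in untransfected cultures, which can follow from the choice of the gene by these values. From 2 to 6 h it changed by -2.43 ± 0.62 (log2, SE) in GFP cultures (edgeR adjusted p = 0.00343) and by -2.25 ± 0.62 in rMBD3 cultures (edgeR adjusted p = 0.00667). Without culture 3 the edgeR adjusted p rose to 0.115 and 0.242, and without culture 2 to 0.104 and 0.0899. From 6 to 24 h it changed by a further -2.05 ± 0.65 in GFP and -1.75 ± 0.63 in rMBD3 cultures (edgeR adjusted p = 0.0162 and 0.0304).

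The gene with the next largest fall was ENSRNOG00000032490, at chr13:26672484-26819846 on the plus strand. Its lowest, median and highest CPM were 11.1, 16.2 and 21.2 at 2 h, 2.51, 4.66 and 6.08 at 6 h and 0.242, 0.862 and 1.99 at 24 h in GFP cultures, and 6.20, 11.6 and 15.8, then 2.82, 3.64 and 5.43, then 0, 0.230 and 1.22 in rMBD3 cultures. No library of one time point reached the range of the next in either kind of culture. It fell by 1.83 ± 0.49 (log2, SE) in GFP cultures between 2 and 6 h (edgeR adjusted p = 0.00522, or 0.208 without culture 3) and by 1.59 ± 0.49 in rMBD3 cultures (edgeR adjusted p = 0.0146, or 0.269 without culture 3). CPM was not divided by gene length, so levels are compared within a gene and not between genes.

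**Figure D3:**
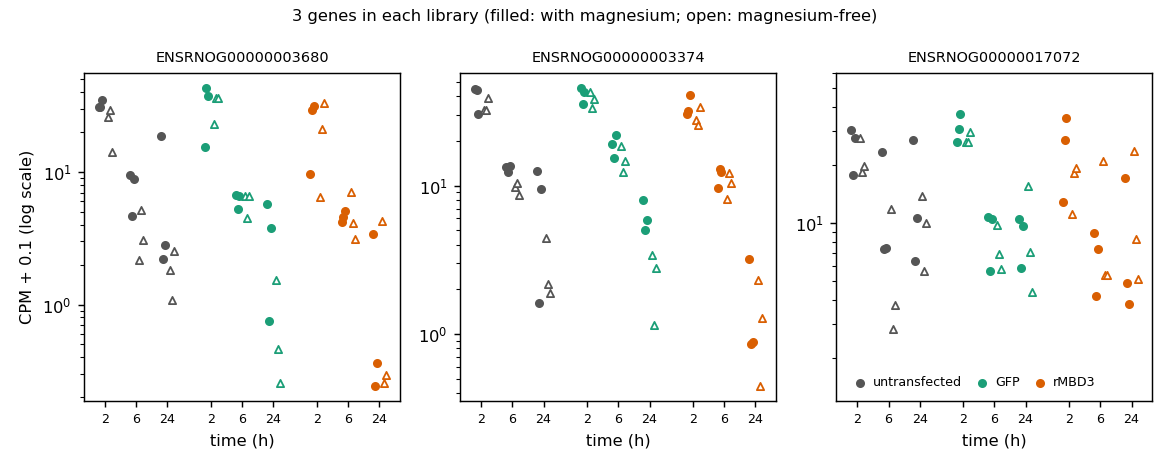
CPM + 0.1 on a log scale (y axis) in each library at 2, 6 and 24 h (x axis) for 3 of the 150 genes, by construct (colour) and medium (filled circles with magnesium, open triangles magnesium-free). ENSRNOG00000003680 fell at both steps in GFP and rMBD3 cultures, ENSRNOG00000003374 was called lower in rMBD3 than in GFP cultures at 24 h, and ENSRNOG00000017072 was about as high at 24 h as at 6 h.

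Most of the 150 genes went on falling after 6 h. Between 6 and 24 h, 121 of the 150 fell and 0 rose in GFP cultures, with a median log2 fold change of -1.73, where edgeR called 15.5% of all genes lower and 10.6% higher. In rMBD3 cultures 117 fell and 0 rose, with a median of -1.86, where 17.8% of all genes were called lower and 14.8% higher. With culture number as a block the counts were 136 (19.2% of all genes) and 129 (21.2% of all genes). The 6 libraries at 6 h all lay above the 6 at 24 h for 82 of the 150 genes in GFP cultures (7.59% of all genes) and for 71 in rMBD3 cultures (8.99% of all genes). At 24 h the median gene kept 11.9% of its 2 h level in GFP and 10.4% in rMBD3 cultures, on the log2(CPM + 0.5) scale. Without culture 2, 79 of the 150 were called lower in each kind of culture (8.39% of all genes in GFP and 10.3% in rMBD3 cultures). Without culture 3, 45 were called lower in GFP (4.3% of all genes) and 37 in rMBD3 cultures (4.07% of all genes), with medians of -1.58 and -1.53.

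A few genes were no lower at 24 h than at 6 h. ENSRNOG00000017072, chosen after its values were seen and lying at chr9:86112894-86137318 on the minus strand, had a lowest, median and highest CPM of 26.2, 28.1 and 36.9 at 2 h, 5.58, 8.25 and 10.7 at 6 h and 4.31, 8.26 and 15.4 at 24 h in GFP cultures. In rMBD3 cultures the values were 11.1, 18.6 and 34.8, then 4.09, 6.27 and 20.9, then 3.70, 6.60 and 23.5. The 6 h and 24 h ranges overlapped throughout in both. Its 24 h against 6 h change was 0.09 ± 0.45 (log2, SE) in GFP and 0.27 ± 0.45 in rMBD3 cultures (edgeR adjusted p = 0.910 and 0.682).

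Culture 1 stood apart in how far the genes fell. Over the 150 genes the mean log2(CPM + 0.5) at 24 h was 2.32 to 3.54 in the 6 libraries of culture 1, 0.871 to 1.89 in those of culture 2 and 0.902 to 2.67 in those of culture 3. With magnesium and no virus, for instance, cultures 1, 2 and 3 went from 5.00, 5.07 and 5.03 at 2 h to 3.96, 3.22 and 3.68 at 6 h and 3.54, 1.70 and 2.67 at 24 h. They began together and were widest apart at 24 h. With the rMBD3 virus culture 1 was already the lowest at 2 h, at 4.37 against 4.83 and 5.05 with magnesium and 4.25 against 4.76 and 4.88 without it. It was also the lowest in GFP libraries, at 4.95 against 5.22 and 5.24 with magnesium and 4.87 against 5.17 and 5.13 without it. Within single cultures the median change from 2 to 6 h in GFP libraries was -0.999, -1.80 and -1.38 with magnesium and -1.40, -1.79 and -1.56 without it, for cultures 1, 2 and 3. In rMBD3 libraries it was -1.25, -1.66 and -1.66 with magnesium and -0.66, -1.41 and -1.69 without it. The smallest of these changes, in rMBD3 culture 1 without magnesium, still had 120 of the 150 genes lower at 6 h, while the median change of all genes there was 0.02. Without culture 1, the median 24 h against 6 h change was -2.07 in GFP and -3.12 in rMBD3 cultures, and edgeR called 144 (19.5% of all genes) and 142 (25% of all genes) of the 150 lower. Mitochondrially encoded genes took 1.95% to 4.07% of counts at 24 h in culture 1 (median 3.36%), 1.75% to 2.37% in culture 2 (median 2.15%) and 1.85% to 4.90% in culture 3 (median 2.36%), and their part in the difference between cultures was not tested.

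The rMBD3 virus was compared with the GFP virus at each time point, which asks whether Mbd3 overexpression moved these genes. At 2 h the median log2 difference over the 150 genes was -0.39, against -0.04 over all genes, and 137 of the 150 had a lower fitted level in rMBD3 cultures (91.3%, against 55.6% of all genes). The median of the 150 was below 0 in 6 of 6 same-numbered pairs, at -0.59, -0.35 and -0.18 with magnesium and -0.61, -0.39 and -0.22 without it for cultures 1, 2 and 3, while the median of all genes lay between -0.09 and -0.02 in these pairs. By edgeR, however, 0 of the 150 passed the threshold (0.105% of all genes were called lower and 0.769% higher), 9 of the 150 and 1984 of all 17172 genes had an unadjusted p under 0.05, a smaller share of the 150 than of all genes, and DESeq2 called 1 lower (0.495% of all genes). With culture number as a block edgeR called 1 lower (0.652% of all genes), and with a separate block for each time point, chosen after seeing the data, 9 lower (2.07% of all genes). Fitted on the compared groups alone, edgeR called 4 lower (0.313% of all genes). With these last 2 fits 42 and 65 of the 150 had an unadjusted p under 0.05, against 3366 of 17172 and 3018 of 15334 genes. The 50 most abundant genes of a library took a larger share of its counts in the rMBD3 than in the GFP library of all 6 pairs at 2 h (10.4% to 13.2% against 8.87% to 11.2%), and the part of this in the difference was not tested.

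The gene called with the block was ENSRNOG00000023337, at chr4:21287982-21494432 on the minus strand. Its CPM at 2 h in cultures 1, 2 and 3 was 24.8, 53.5 and 44.5 in GFP and 12.8, 37.1 and 20.3 in rMBD3 libraries with magnesium. Without magnesium it was 32.3, 57.2 and 51.2 in GFP and 8.85, 24.9 and 23.6 in rMBD3 libraries. Each rMBD3 library was below the GFP library of the same culture and medium, although the ranges overlapped. The log2 difference was -1.05 ± 0.28 (SE) with an edgeR adjusted p of 0.0565, and -1.06 with an adjusted p of 0.0230 with the block. Without culture 1, 2 or 3 the edgeR adjusted p was 0.0803, 0.569 and 0.514. With the compared groups alone it was 0.0924, and the DESeq2 adjusted p was 0.0167. At 6 h the log2 difference was -0.13 ± 0.28 (edgeR adjusted p = 0.928).

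At 6 h the median difference between rMBD3 and GFP cultures was -0.32 over the 150 genes and -0.04 over all genes, and it was below 0 in 4 of 6 pairs. The edgeR test called 0 of the 150 (0.0408% of all genes were called lower and 0.181% higher), with 5 of the 150 and 1632 of all 17172 genes at an unadjusted p under 0.05. DESeq2 called 0 of the 150 and 189 of 14385 genes. A block for each time point gave 3 lower (0.978% of all genes), and the compared groups alone called 0, with 31 of the 150 and 2186 of 15491 genes at an unadjusted p under 0.05. The 50 most abundant genes again took the larger share in the rMBD3 library of all 6 pairs (12.7% to 15.5% against 11.4% to 14.5%). ENSRNOG00000006639, at chr3:51145146-51293516 on the minus strand, had the largest of these differences. Its CPM at 6 h in cultures 1, 2 and 3 was 2.44, 9.66 and 11.9 in GFP and 1.07, 3.28 and 3.31 in rMBD3 libraries with magnesium, and 3.89, 8.14 and 5.30 against 0.544, 3.42 and 1.95 without it. Each rMBD3 library was the lower of its pair. The log2 difference was -1.58 ± 0.67 (SE), with an edgeR adjusted p of 0.416, and of 0.0155 with a block for each time point.

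At 24 h the pairs of rMBD3 and GFP libraries were less alike than at 2 h. With magnesium the median rMBD3 minus GFP difference over the 150 genes was -0.22, -1.07 and -1.49 in cultures 1, 2 and 3, and without magnesium 0.08, 0.08 and -0.44. Averaged over the media edgeR gave a median of -0.38, with 1 of the 150 called lower (0.553% of all genes) and 0 higher (0.396% of all genes), and DESeq2 called 4 lower and 1 higher (2.25% and 1.08% of all genes). With culture number as a block it called 12 lower and 2 higher (3.95% and 2.64% of all genes), and with a block for each time point 47 lower and 3 higher (7.59% and 5.07% of all genes). Without culture 1 edgeR called 65 lower and 2 higher, with a median of -1.19 (6.69% and 3.7% of all genes). Without culture 2 or culture 3 it called 0 of the 150, but also only 7 of 17350 and 1 of 17436 genes in all. The median was -0.37 without culture 2 and -0.13 without culture 3. Without culture 3, 58% of the 150 had a negative value (48.5% of all genes), against 76% with all cultures (47.3% of all genes).

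The gene called at 24 h was ENSRNOG00000003374, at chr14:102129029-102359058 on the minus strand. At 24 h with magnesium its CPM in cultures 1, 2 and 3 was 7.86, 4.90 and 5.77 in GFP and 3.12, 0.755 and 0.784 in rMBD3 libraries. Without magnesium it was 3.30, 1.05 and 2.69 in GFP and 2.20, 0.349 and 1.18 in rMBD3 libraries. The rMBD3 libraries with magnesium all lay below the GFP ones, and without magnesium the ranges overlapped. The log2 difference was -1.43 ± 0.36 (SE), with an edgeR adjusted p of 0.0443 (0.00807 with the block, 0.140 without culture 2 and 0.644 without culture 3).

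The magnesium-free medium was compared with the medium with magnesium over all 3 constructs, which asks how the Epileptic condition changed these genes. The choice of genes averaged both media, so it did not use this difference. At 2 h the median log2 difference over the 150 genes was -0.11, and in 9 of 9 same-numbered pairs the median was below 0, from -0.30 to -0.02, while the median of all genes ran from -0.04 to 0.11. At 6 h it was -0.23, and 7 of 9 pairs were below 0, from -0.71 to 0.39, both exceptions being rMBD3 cultures. By edgeR 0 of the 150 and 0.0% of all genes passed at 2 h and at 6 h, with 0 and 3 of the 150 and 132 and 355 of all 17172 genes at an unadjusted p under 0.05, and DESeq2 called 0 of the 150 at both. Fitted on the compared groups alone, edgeR also called 0 at both, with 9 and 22 of the 150 at an unadjusted p under 0.05, against 418 of 15705 and 464 of 15985 genes. Averaged over GFP and rMBD3 cultures, no difference between media in the fall from 2 to 6 h was detected. The edgeR test called 0 of the 150 and 0.0% of all genes, with a median difference of 0.01 and 0 of the 150 and 80 of all genes at an unadjusted p under 0.05, and DESeq2 called 0 of the 150. The average joins cultures that went opposite ways. The median change of the 150 within a culture was the more negative without magnesium in GFP cultures 1 and 3 and the less negative in rMBD3 cultures 1 and 2, with the values given above. It was -1.79 without against -1.80 with magnesium in GFP culture 2 and -1.69 against -1.66 in rMBD3 culture 3, each opposite in direction to the others of its construct. With no virus it was -1.64, -1.87 and -1.71 without magnesium against -1.05, -1.81 and -1.31 with it for cultures 1, 2 and 3. Whether this difference depended on the construct was not tested.

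At 24 h the genes were lower in magnesium-free medium by a median of -0.66 on the log2 scale, against 0.00 over all genes. A negative fitted difference was found for 144 of the 150 (96%, against 50.3% of all genes). For cultures 1, 2 and 3 the median was -0.78, -0.13 and -0.88 with no virus. It was -0.54, -0.85 and -1.08 with the GFP virus and -0.29, 0.30 and -0.03 with the rMBD3 virus. Untransfected and GFP cultures were thus below 0 in 6 of 6 pairs and rMBD3 cultures lay on both sides of 0. The edgeR test called 0 of the 150 and 0.0% of all genes, while 62 of the 150 and 1988 of all 17172 genes had an unadjusted p under 0.05 and DESeq2 called 4 lower (0.557% of all genes). With culture number as a block edgeR called 2 lower (0.21% of all genes), with a block for each time point 62 lower (6.13% of all genes), and without culture 1, 13 lower (0.994% of all genes). Without culture 3 it called 0, with 13 of the 150 and 591 of 17436 genes at an unadjusted p under 0.05. The compared groups alone also gave 0, with 7 of the 150 and 474 of 16104 genes.

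ENSRNOG00000019738, at chr2:195782752-195789621 on the minus strand, had the larger change of the 2 genes called with the block. Its CPM at 24 h in cultures 1, 2 and 3 with magnesium was 7.28, 0.965 and 8.84 in libraries with no virus, 8.22, 2.00 and 5.94 in GFP and 3.67, 0.611 and 0.336 in rMBD3 libraries. Without magnesium it was 3.44, 1.24 and 1.47 in libraries with no virus, 3.35, 0.121 and 0.269 in GFP and 1.61, 0.310 and 0.314 in rMBD3 libraries. The magnesium-free library was the lower in 8 of 9 pairs, culture 2 of the untransfected group being the exception. The log2 difference was -1.60 ± 0.44 (SE), with an edgeR adjusted p of 0.165, and -1.66 with an adjusted p of 0.0497 with the block.

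**Figure D4:**
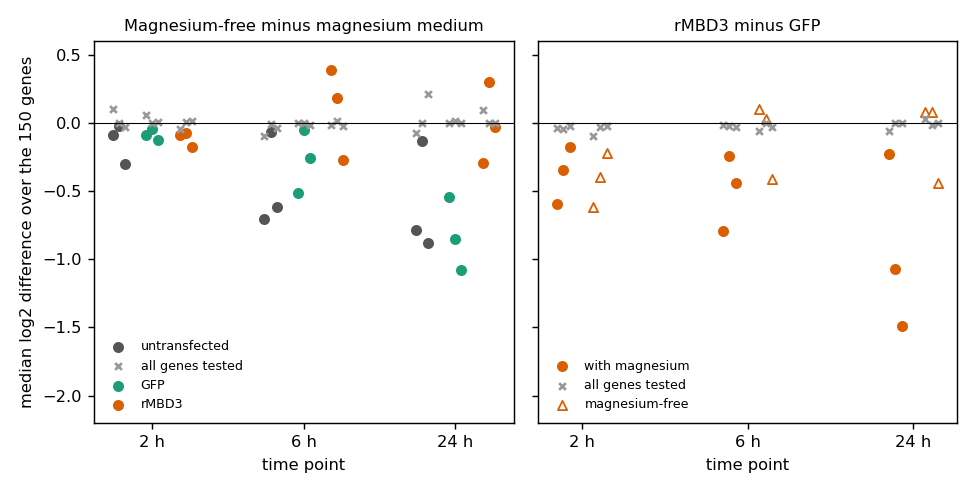
Median log2 difference over the 150 genes (coloured) and over all genes (grey crosses) in each pair of libraries with the same culture number (y axis), by time point (x axis), for magnesium-free minus magnesium medium on the left and rMBD3 minus GFP on the right. The medium difference of the 150 at 24 h lies between -1.08 and -0.13 in untransfected and GFP cultures and between -0.29 and 0.30 in rMBD3 cultures.

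Whether the medium difference at 24 h differed between rMBD3 and GFP cultures was tested as an interaction, chosen after these values were seen. Its median over the 150 genes was 0.67 against -0.01 over all genes, and 15.3% of the 150 had a negative value, against 51.9% of all genes. By edgeR 0 of the 150 and 0.0% of all genes passed, with 17 of the 150 and 587 of all 17172 genes at an unadjusted p under 0.05, and DESeq2 called 0 of the 150. The 17 became 3 (of all genes, 132 of 15453) in a fit of the compared groups alone, 11 (511 of 17350) without culture 2, 7 (445 of 17436) without culture 3 and 69 (1029 of 16998) without culture 1. A block for each time point gave 1 higher (0.00582% of all genes) with a median of 0.99, and leaving out culture 1 gave 1 higher (0.0118% of all genes) with a median of 1.47.

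The gene in both of those fits was ENSRNOG00000008992, at chr5:137767865-137984307 on the plus strand. At 24 h with magnesium its CPM in cultures 1, 2 and 3 was 4.80, 2.87 and 5.87 in GFP and 1.22, 0.180 and 0.149 in rMBD3 libraries. Without magnesium it was 5.21, 0.443 and 1.19 in GFP and 7.69, 0.659 and 0.470 in rMBD3 libraries. In rMBD3 cultures every magnesium-free library was above its pair with magnesium, and in GFP cultures 2 of 3 were below. The interaction was 3.50 ± 1.09 (SE) on the log2 scale, with an edgeR adjusted p of 0.786, 0.0129 with a block for each time point and 0.0205 without culture 1. It rests in part on the rMBD3 values of 0.180 and 0.149 with magnesium, which were near the floor. In those libraries 3 counts stood for 0.108 and 0.112 CPM.

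The 150 genes spanned more of the genome than the others, as a description that was not tested. Their median span from first to last annotated base was 82907 bases. For the 10387 other genes that met the chromosome, span and level limits, not all of which met the 24 h limit, it was 25722 bases. Exonic length (medians 3778.5 and 3241 bases) and number of exon blocks (median 10 in both) were closer. The share of genes chosen was 1.21% for spans under 10 kb, 0.496% from 10 to 30 kb, 1.04% from 30 to 100 kb, 2.65% from 100 to 200 kb, 7.51% from 200 to 300 kb and 9.06% from 300 to 500 kb. Span was limited by the rule at 500 kb but did not otherwise enter the choice. A group of 29 genes under 10 kb was chosen too, and 5 of the 150 had a single exon block (3.33%, against 2.03% of the others).

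All genes showed a related gradient in libraries not used for the choice. In GFP cultures the median 6 h against 2 h change of all genes within the limits was 0.02 for spans under 10 kb, -0.04 from 10 to 30 kb, -0.11 from 30 to 100 kb, -0.28 from 100 to 200 kb, -0.52 from 200 to 300 kb and -0.72 from 300 to 500 kb. In the same classes the chosen genes had medians of -1.53, -1.56, -1.48, -1.61, -1.73 and -1.40, with no order by span. The rule took only genes with a fall of at least 1.39 in untransfected cultures, whatever their span. Medians near each other in all classes can follow from that choice, which also limits what rho across the 150 can show. In rMBD3 cultures the gradient ran from -0.09 under 10 kb to -0.55 at 300 to 500 kb, passing -0.04 at 30 to 100 kb. Across the 10537 genes Spearman's rho between span and change was -0.18 in GFP and -0.04 in rMBD3 cultures, and across the 150 it was -0.05 and 0.21, as descriptions over genes measured in the same libraries. The 193 tested autosomal genes of 500 kb or more, which the rule left out, had median changes of -0.95 in GFP and -0.83 in rMBD3 cultures.

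**Figure D5:**
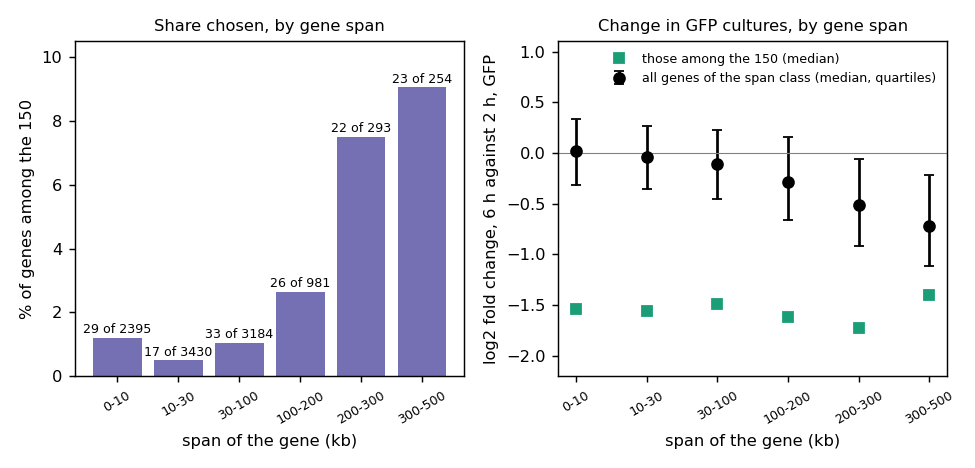
Left, percentage of genes of each span class (x axis, kb) that were among the 150, with the numbers above the bars. Right, log2 fold change at 6 h against 2 h in GFP cultures (y axis) by the same classes: black points are medians of all genes within the limits with quartiles as bars, and green squares the medians of the chosen genes, which lie between -1.73 and -1.40 in every class. Only genes with a large fall in untransfected cultures were chosen, so similar medians can follow from the choice.

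The genes lay on all 20 autosomes. Chromosomes 1, 3 and 7 held 16 each, of 1366, 815 and 709 genes within the limits. Chromosome 13 had the highest share, 11 of 310 (3.55%), and chromosome 16 the lowest, 1 of 307 (0.326%), while chromosome 10 held 5 of 929 (0.538%). Of the 150, 19 stood next to each other in 9 runs, with no other gene within the limits between them: 8 pairs and 1 triple. Not all runs were close, as the gaps within pairs ran from 57 to 2870682 bases. Whether such runs were more frequent than among other genes was not tested. The triple covered chr10:26374694-27151251 and included the gene with the largest fall, ENSRNOG00000003680. Its 3 genes, on strands minus, minus and plus, fell by 1.74 to 2.35 in untransfected cultures, and in GFP cultures changed by -2.43 to -1.64, with a highest edgeR adjusted p of 0.0147. The closest pair, at chr7:61049021-61154994, had both genes on the minus strand 57 bases apart, with changes of -2.03 and -1.84 in GFP cultures and a highest edgeR adjusted p of 0.000167. Reads that run from the first of these into the next could be counted for either, and this was not tested.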

How the data were processed

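RNA from rat cortical neuron cultures was sequenced as 54 libraries in 18 groups of 3. The deposited values used here are raw counts per gene, which the authors made with featureCounts 2.0.0 on the Ensembl annotation of mRatBN7.2, release 105, on read pairs, with strand setting 2 and a minimum mapping quality of 3, per the file headers. The labels' protocols name STAR and the build rn6, so header and protocol differ. Counts were taken by strand, which separates antisense overlaps, while near-identical genes can share reads.

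The 150 members were computed from CPM with a pseudocount of 0.5. Members, lists and comparisons were chosen with earlier results of these data known. Planned gene lists, cell type markers, promoter motifs and the choice of names by symbol need symbols and were not run. Genes were named as the 2 with the largest fall in untransfected cultures, the 2 with the smallest fall at each step in GFP and rMBD3 cultures, and up to 2 per direction past the threshold in the other comparisons, taken from the fit without a block or, where it called none, from the blocked fits. Names from the 6 to 24 h step and from blocked fits go beyond the planned rule and were chosen after the values were seen.

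Tests used edgeR 4.0.16 in R 4.3.3: filterByExpr (minimum count 10, minimum total 15), TMM scaling, and a robust quasi-likelihood model with a coefficient for each of 18 groups over 54 libraries, with Benjamini-Hochberg adjustment over 17172 genes and a threshold of 0.05. Each SE was computed as the absolute log2 fold change over the square root of F. Averaged comparisons weight conditions equally. The script was tested on simulated data. The culture number in the labels pairs the libraries. Deviations from group means correlated at 0.188 on average between same-numbered libraries of different groups and at -0.0902 between others. Alternatives were culture number as a block, relative log expression (RLE) factors, no count filter, DESeq2 1.42.0 (minimum total of 10 counts), the compared groups alone, each culture left out and, added after seeing the data, a block for each time point, under which the change between time points within a construct is undefined, while differences in that change between constructs or media can be fitted. The labels call the number a biological replicate of the culture. The fit without a block treated the 54 libraries as independent, although same-numbered ones correlated. Libraries of both media with the same culture number thus counted separately in averages over media. Its p-values measure the spread between libraries within groups. Those of the blocked fits measure the spread left after culture number is taken out.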

Additional observations from a re-analysis of the deposited data

Results flagged for a closer look

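For 3 of the genes named, every magnesium-free library was above its same-numbered pair with magnesium in one kind of culture and every one below it in another. The difference between the kinds of culture was not tested. For ENSRNOG00000017072 at 24 h, rMBD3 cultures were above and untransfected cultures below, with mean log2(CPM + 0.5) differences 0.906 apart. For ENSRNOG00000066918 at 2 h, GFP cultures were above and rMBD3 cultures below, 0.363 apart. For ENSRNOG00000008992 at 24 h, rMBD3 cultures were above and untransfected cultures below, 2.29 apart. The last of these was named for its medium difference and the others for other changes. With 3 pairs in each group such splits can arise without a difference.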

How the results depend on the processing

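Values here count those of the 150 genes called by edgeR at an adjusted p under 0.05, unless another tool is named. With the replicate block, the counts for 6 h against 2 h were 150 in GFP and 141 in rMBD3 cultures, and for 24 h against 6 h 136 and 129, all within 1.5 times the counts without it. The replicate block moved rMBD3 against GFP from 0 to 1 at 2 h and from 1 to 14 at 24 h, and the medium at 24 h from 0 to 2; it left the other comparisons at 0. A block for each time point gave 9 at 2 h, 3 at 6 h and 50 at 24 h for rMBD3 against GFP, 62 for the medium at 24 h and 1 for its interaction. DESeq2 gave 1 at 2 h and 5 at 24 h for rMBD3 against GFP and 4 for the medium at 24 h. The compared groups alone gave 4 at 2 h (0.313% of all genes) and 0 at 24 h (4 of 15453 genes in all) for rMBD3 against GFP. RLE factors and no count filter gave 0 at 24 h (118 of 17172 and 70 of 24177 genes in all).

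Leaving out each culture in turn gave 34 to 146 for GFP at 6 h against 2 h, 22 to 147 for rMBD3, 45 to 144 for GFP at 24 h against 6 h and 37 to 142 for rMBD3, lowest without culture 3 and highest without culture 1 in all 4; 0 to 67 for rMBD3 against GFP at 24 h, 0 to 13 for the medium at 24 h and 0 to 1 for its interaction. The shares of all genes called lower moved the same way, lowest without culture 3 and highest without culture 1. They ran from 3.42% to 18.4% for GFP and from 3.6% to 16.3% for rMBD3 at 6 h against 2 h. At 24 h against 6 h they ran from 4.3% to 19.5% for GFP and from 4.07% to 25% for rMBD3. The cause was not tested. Direction reversed without culture 1 for changes from 6 to 24 h that were not called. Over the 3 cultures left out these ran from -0.47 to 0.48 for ENSRNOG00000002863 and from -0.0776 to 0.174 for ENSRNOG00000017072 in GFP cultures, and from -0.0612 to 0.459 for ENSRNOG00000017072 and -0.17 to 0.26 for ENSRNOG00000066918 in rMBD3 cultures. The rule itself kept 116 of the 150 genes with a pseudocount of 2, 103, 121 or 122 without culture 1, 2 or 3, and all 150 with TMM-scaled CPM. At 24 h up to 12 of the 150 were below 3 counts in a library, so their levels there are uncertain.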
